A study of Danio rerio with 2 samples.

Results

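Globin and red cell genes were followed section by section through a pair of injured zebrafish ventricles, 1 taken 3 days post injury (3 dpi) and the other 7 dpi, as a trace of blood content along the heart. The genes named were hbaa1, hbaa2, hbba1 and hbba2 (adult globins), hemgn and alas2, matched by symbol to the Ensembl IDs of both count tables. Of these 6, only hbaa2 (ENSDARG00000069735), hemgn (ENSDARG00000096667) and alas2 (ENSDARG00000038643) were measured, out of 18139 gene IDs with a row in either table. The ID of hbaa1 (ENSDARG00000097011) had no row in either table, and hbba1 and hbba2 had no ID in the table of gene names used, so none of the 3 is given a value. hbaa2 had 936 counts at 3 dpi and 1217 at 7 dpi, alas2 had 316 and 108, and hemgn had 157 and 50, all above the minimum of 20.

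Both ventricles came from adult zebrafish, were injured by freezing (cryoinjury) and carry WT in their titles; no other treatment or allele is given. Each was cut at 12 µm from the injured area toward remote, uninjured muscle, and every section was sequenced by CEL-seq, which barcodes RNA from small samples and reads the ends of transcripts. The 3 dpi heart gave 40 sections, of which the 35 with 39495 to 302404 counts were kept. The 7 dpi heart gave 38, of which the 24 with 20832 to 813848 counts were kept, and its section 34 alone held 25.5% of the kept counts. Each day is represented by 1 heart and its sections are not replicates. No test was therefore made, and a difference between the hearts cannot be told apart from a difference between animals. Levels are counts per 1000000 gene counts (CPM). The range after a level or a fold is its exact 95% interval, which covers at most counting error. Such an interval treats each count as an independent molecule and is too narrow if counts include copied reads. Fewer red cells in a section and less RNA per red cell cannot be told apart in such data, and whether the hearts were rinsed of blood is not given in the sources used here.

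Red cells of fish keep their nuclei and go on holding RNA in the circulation, so globin transcripts in a tissue section mark blood as well as any red cells being made. Haemoglobin is built from alpha and beta globin chains, each with a haem group. Haem synthesis in red cells starts with the enzyme encoded by alas2, whose loss in zebrafish causes an anaemia with poorly filled red cells, while other cells use the related gene alas1. hemgn encodes hemogen, a nuclear protein of developing red cells in human and mouse.

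Most of the globin signal lay outside the 3 measured members. The 4 other globin IDs with at least 20 counts were picked by symbol after the tables had been seen. si:ch211-5k11.8 (ENSDARG00000079078), listed as hbaa1.2 among its synonyms in RefSeq's GRCz12tu annotation, had 32735 counts at 3 dpi and 26588 at 7 dpi. The name table gives the human symbol HBE1, a beta-type globin, to ENSDARG00000089087 with 32505 and 18718 counts and to ENSDARG00000069734 with 2171 and 1372. Which zebrafish beta globin each of these is was not resolved, so hbba1 or hbba2 may be among them. The embryonic alpha globin hbae4 (ENSDARG00000045144) had 60 and 58 counts. Together with hbaa2 these 5 IDs made up 1.69% of the kept counts at 3 dpi and 1.44% at 7 dpi. hbaa2 contributed 928 of the 66027 kept globin counts at 3 dpi and 1178 of 45889 at 7 dpi, so it is a minor part of the globin signal. Globin genes are near-identical copies, and in GRCz12tu hbba2 lies across hbaa2 and hemgn overlaps anp32b, so the authors' counting could have moved reads between such genes.

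In the 3 dpi heart the globins formed a trough flanked by high levels on either side. The 5 globin IDs summed stood at 3478 CPM in section 1, the only kept section among sections 1 to 5. They reached 38813 CPM (38003 to 39637) in sections 6 to 10, then 14882 in sections 11 to 15 and 7749 (7506 to 7998) in sections 16 to 20. From there levels were higher toward the remote end, with 10879 CPM in sections 21 to 25, 16565 in 26 to 30, 16188 in 31 to 35 and 22267 (21966 to 22571) in 36 to 40. The lowest section inside the trough was section 17, at 5366 CPM. Of the sections with too few counts to be kept, sections 5 and 6 continued the injury-side peak, at 67672 and 71630 CPM. Section 2 had only 5611 CPM, and the 5 such sections together stood at 33858 CPM (32512 to 35246).

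In kept sections hbaa2 followed the same course at a lower level. In sections 2 to 6, which were left out, hbaa2 had 8 counts, at 114 CPM (49.1 to 224). Its kept sections ran from 0 counts in section 1 to 486 CPM in section 7, 341 in section 8, 216 in section 9 and 219 in section 10. It stood at 147 CPM (115 to 185) in sections 16 to 20 and 133 (104 to 166) in sections 21 to 25, and at 345 CPM (308 to 385) in sections 36 to 40. The highest section was section 30, at 636 CPM from 37 counts. The peak on the injury side, 329 CPM (258 to 413) in sections 6 to 10, was therefore level with the remote end, whereas the summed globins were highest on the injury side.

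alas2, the red cell enzyme of haem synthesis, was likewise low between 2 higher flanks. On the injury side it stood at 25.02 CPM in section 1, 157 in section 7, 155 in section 8, 151 in section 9 and 79.7 in section 10. Its level was 32.5 CPM (18.2 to 53.7) in sections 11 to 15 and 44.4 in 16 to 20, and then 72.6, 56.7, 82.3 and 125 CPM (103 to 149) in the following groups of 5 sections. The low stretch rests on 15 and 22 counts.

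hemgn was counted less often and more unevenly. Section 8 held 11 counts (170 CPM), section 10 held 7 (139.5 CPM), section 9 held 4 (86.5 CPM), and sections 1 and 7 held 1 each. Between sections 11 and 15 the level was 15.2 CPM (6.11 to 31.3), and in sections 36 to 40 it was 69.2 CPM (53.4 to 88.2). Section 36 was the highest of all, at 177 CPM from 16 counts, and the globins also had a local high there, at 35323 CPM.

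**Figure D1:**
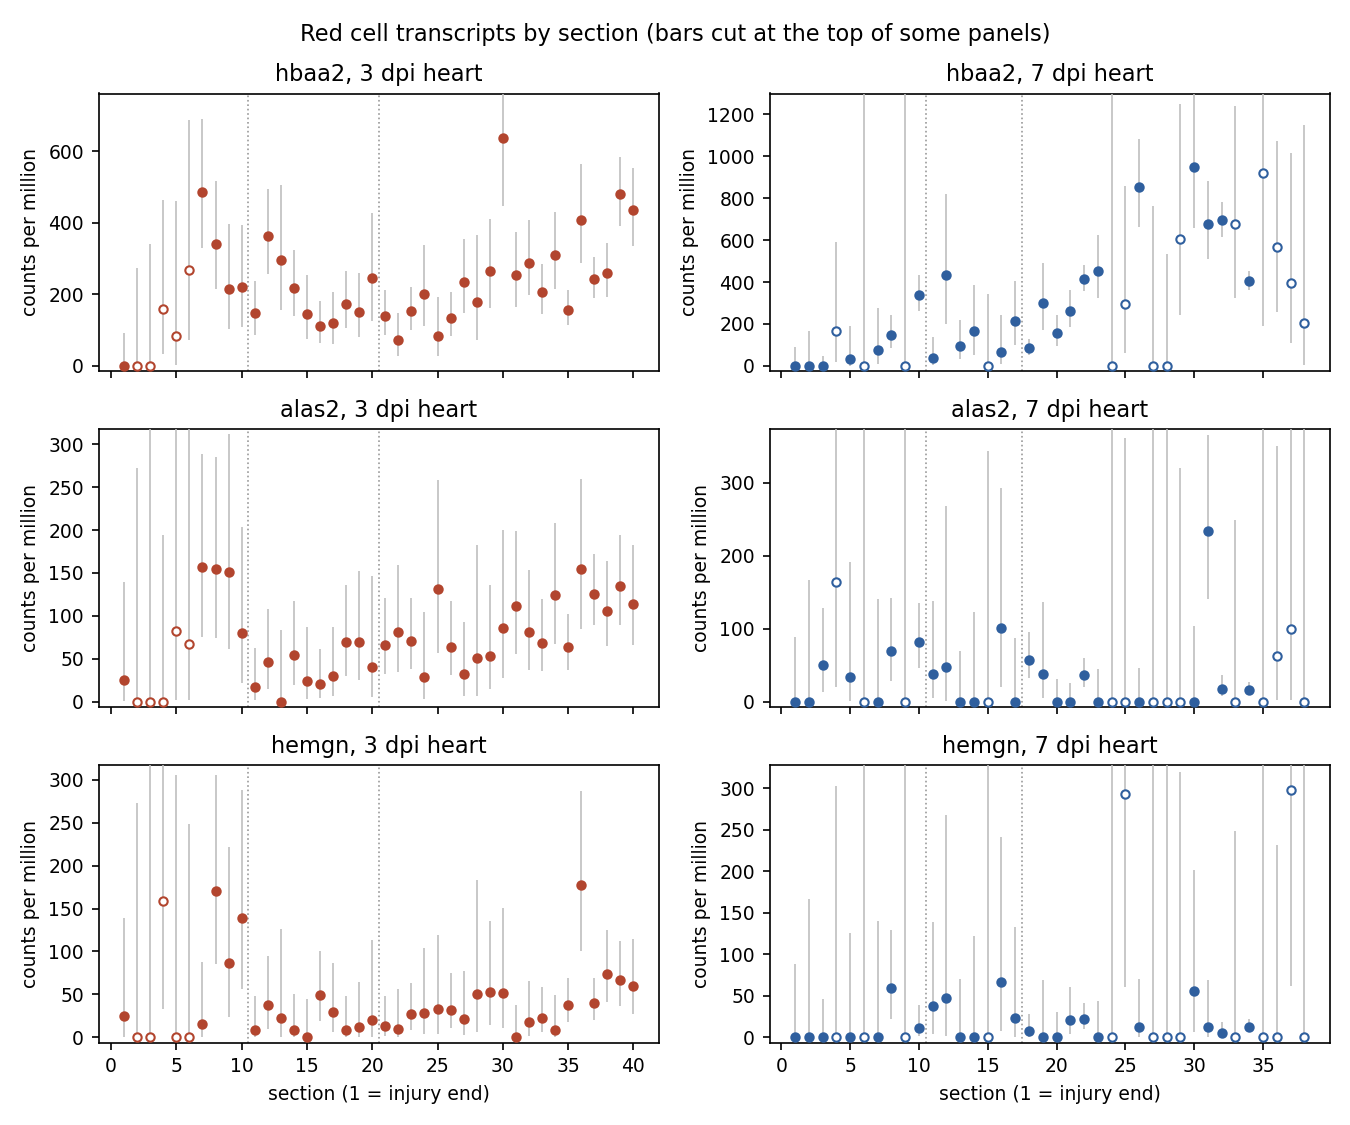
hbaa2, alas2 and hemgn in CPM (linear vertical axes, different per panel) by section number, with section 1 at the injury end. Filled points are kept sections, open points sections with too few counts, bars 95% counting intervals (cut at the top of some panels), and dotted lines the domain boundaries; in the 3 dpi heart hbaa2 is low over sections 16 to 25 and higher on either side, and in the 7 dpi heart hbaa2 is highest on the remote side.

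The kept sections were also divided into 3 contiguous domains by the expression of genes outside all lists, which at 3 dpi gave sections 1 to 10 (injury side, 5 kept), 11 to 20 (middle, 10 kept) and 21 to 40 (remote side, 20 kept). Pooled over these domains, alas2 stood at 121 CPM (82.7 to 171) on the injury side, 38.7 (27.2 to 53.3) in the middle and 91.0 (79.9 to 103) remotely. hemgn stood at 90.7, 20.9 and 40.9 CPM, with its middle sections between 0 and 48.8 CPM and its injury-side sections between 15.7 and 170 CPM, so that these overlap. hbaa2 differed least, with 279.6, 186 and 251 CPM. The injury-side over middle fold was 1.502 (1.13 to 1.98) for hbaa2, 3.13 (1.89 to 5.16) for alas2 and 4.34 (2.29 to 8.28) for hemgn, whose middle level rests on 20 counts. For the summed globins it was 2.99 (2.91 to 3.08). Single sections of these overlap as well. Injury-side sections ran from 3478 to 46868 CPM for the globins, and middle sections from 5366 to 19607. For alas2 the ranges were 25.02 to 157 and 0 to 69.92 CPM. For hbaa2 they were 0 to 486 and 111.4 to 361.9 CPM. The overlap of the globins and of alas2 came from section 1, since sections 7 to 10 lay above every middle section. Of the red cell list, 40 symbols of red cell genes, 15 IDs had at least 20 kept counts at 3 dpi. Of those 15, 13 were lowest in the middle domain, against 17.2% of all 8186 genes with that many counts. With the sparse sections 2 to 6 kept, the domains became sections 1 to 6, 7 to 19 and 20 to 40. Of the 15, 6 were then lowest in the middle, and the share of all genes was not computed for these borders.

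The contrast of the injury side with the remote side at 3 dpi depended on the scaling and on the borders. hbaa2, hemgn and alas2 summed were at 491 CPM on the injury side and 383 on the remote side, a fold of 1.28 (1.06 to 1.54) or a log2 difference of 0.36. Over all genes the median difference was 0.55, and with median-of-ratios scaling that of the summed members was -0.56. It was also below 0 with sparse sections kept (-1.48) and with 3 domains of equal number (-0.55). Of the 15 red cell IDs, 3 exceeded their remote-side level by 2-fold or more on the injury side, as did 35.3% of all genes. They were hemgn, SLC4A1 and SLC25A38, the last from 5 injury-side counts and with a fold interval that includes no difference. SPTB, beta-spectrin of the membrane skeleton, was the reverse by 2-fold or more, at 34 CPM on the injury side and 94.0 remotely, as were 16.5% of all genes. The list's median difference was 0.44. SLC4A1 (ENSDARG00000012881), the anion exchanger of the red cell membrane, was 3.21-fold higher on the injury side (2.21 to 4.58), at 159 against 49.4 CPM.

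Of the other cell type markers at 3 dpi, those of thrombocytes were lowest between the flanks by groups of 5 sections, on small counts. By domain this did not hold, as they summed to 79.3 CPM near the injury, 40.8 in the middle domain and 37.9 remotely. Their remote-side over middle fold was 0.93 (0.64 to 1.38). The 4 of 5 thrombocyte markers with a row summed to 89.0 CPM in sections 6 to 10, 58.6 in 11 to 15, 24.2 (12.5 to 42.3, from 12 counts) in 16 to 20, 26.6 in 21 to 25 and 41.5 (29.5 to 56.8) in 36 to 40, so that the low point and the remote flank overlap in their intervals. Their part in the red cell profile was not tested. The cardiomyocyte markers, 6 of 7 with a row, summed to 7824 CPM in the injury-side domain, 24088 in the middle and 40765 in the remote-side domain. The macrophage and neutrophil markers, 7 of 9 with a row, stood at 2977, 1027 and 286 CPM. The endothelium markers, 3 of 5 with a row, stood at 94.4, 130 and 134 CPM, and the epicardium markers, 4 of 4 with a row, at 657, 357 and 120 CPM. Across the 35 kept sections, the Spearman rho of hbaa2 was 0.28 with the cardiomyocyte markers, -0.25 with the macrophage and neutrophil markers, 0.06 with the endothelium markers and -0.04 with the section total. These are descriptions, since the points share a heart and a library preparation.

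In the 7 dpi heart hbaa2 was close to 0 at the injury end and highest on the remote side. hbaa2 had 0 counts in sections 1, 2 and 3, 1 count in section 5 and 2 in section 7, and over sections 1 to 5 its level was 5.77 CPM (0.15 to 32.2). It then reached 254 CPM (201 to 317) in sections 6 to 10, nearly all of it from 15 counts in section 8 and 62 in section 10. The level was 135 CPM (83.3 to 206) in sections 11 to 15, 134 (104 to 170) in 16 to 20, 386 (339 to 437) in 21 to 25, 884 (721 to 1074) in 26 to 30 and 511 (473 to 552) in 31 to 35. The highest sections were section 30, at 950.3 CPM, and section 26, at 855 CPM. Sections 26, 30, 31 and 32 lay above the highest section of the 3 dpi heart.

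The summed globins at 7 dpi were also low at the injury end, though well above 0, and had no such remote-side maximum. They stood at 1052 CPM in section 1, 723 in section 2, 3036 in section 3 and 5818 in section 5, and at 2731 CPM (2491 to 2989) over sections 1 to 5. Section 4, with too few counts to be kept, had 9517 CPM. The following groups of 5 sections held 17510, 20805, 11400, 14051, 19091 and 15292 CPM. Section 12, with 46275 CPM, and section 15, with 41717 CPM and too few counts to be kept, stood above all other sections, while the kept section 13 between them had 13231 CPM.

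alas2 and hemgn were sparse at 7 dpi. alas2 had counts in 13 of 24 kept sections, of which section 31 held the most, with 19 counts and 234 CPM, although it held 2.54% of all kept counts. hemgn had 44 counts in kept sections and was detected in 14 of them, with no section above 10 counts. Over sections 1 to 5 alas2 stood at 28.9 CPM (9.37 to 67.4) from 5 counts. hemgn had 0 counts there, with an interval reaching 21.3 CPM, above its remote-side level of 12.1 CPM, so a lower level at the injury end was not detectable at this depth.

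Pooled over the 7 dpi domains, sections 1 to 10 (7 kept), 11 to 17 (6 kept) and 18 to 34 (11 kept), hbaa2 stood at 165 CPM (131 to 206), 140.3 (96.0 to 198) and 429 (404 to 456). The injury-side sections ran from 0 to 339 CPM with a median of 34.2, and the remote-side ones from 84.2 to 950.3 with a median of 415, so the ranges overlap. The remote side was 2.60-fold above the injury side (2.07 to 3.30). Without sections 8 and 10, the log2 difference of the injury side from the remote side went from -1.37 to -4.75. alas2 stood at 55.8, 26.3 and 28.6 CPM and hemgn at 16.5, 26.3 and 12.1 CPM, from 8, 6 and 30 counts. hemgn and alas2 did not share the remote-side level of hbaa2: alas2 was higher near the injury by 1.95-fold (1.204 to 3.08), and 7 and 15 of its 27 counts there lay in sections 8 and 10. That log2 difference of 0.94 changed sign in 4 of 15 alternatives, to -0.11 with each section weighted equally, -0.18 without sections 8 and 10 or with the borders of an earlier analysis, and -0.65 with all sections kept. With all sections kept the borders moved, and sections 1 to 23 were compared with sections 35 to 38. With the domains given first, hemgn was 1.37-fold higher near the injury (0.54 to 3.05), an interval that includes 1. Its log2 difference changed sign in 4 of 15 alternatives, ranging from -3.71 to 0.76. In the red cell list 5 of 14 IDs were at least 2-fold higher on the remote side on the log2(CPM + 1) scale, where 26.7% of all 7806 genes were. The 5 were hbaa2, SPTB, AQP1 (ENSDARG00000023713), RHAG and a second SLC4A1 ID (ENSDARG00000024560). AQP1 rested on 4 injury-side counts, and its remote-side over injury-side fold of 2.19 (0.80 to 8.40) has an interval that includes 1. RHAG, an ammonia channel subunit of the red cell membrane, had 0 injury-side counts. With a floor of 3 counts in place of 0 it was 1.95-fold higher on the remote side. The lower limit of its exact interval, without the floor, was 1.49. For the second SLC4A1 ID neither value was above 1. gata1a, the transcription factor of red cell and thrombocyte precursors, was the only ID of the 14 to exceed its remote-side level by 2-fold or more near the injury, at 55.8 against 11.7 CPM (4.78-fold, 2.72 to 8.36), as did 11.3% of all genes. Of the 14, 6 were lowest in the middle domain, against 36.7% of all genes.

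Cardiomyocyte and endothelium markers were arranged more steeply at 7 dpi than at 3 dpi. The cardiomyocyte markers summed to 78.5, 232 and 14828 CPM from the injury outward, and the endothelium markers to 39.3, 74.5 and 620.4 CPM. The macrophage and neutrophil markers stood at 1478, 2876 and 986 CPM. Across the 24 kept sections, rho of hbaa2 was 0.70 with the cardiomyocyte markers, 0.72 with the endothelium markers and -0.66 with the macrophage and neutrophil markers. For the summed globins the same values were 0.33, 0.34 and -0.45, and for alas2 they were 0.00, -0.06 and -0.08. The part of tissue composition in the hbaa2 profile was not tested.

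**Figure D2:**
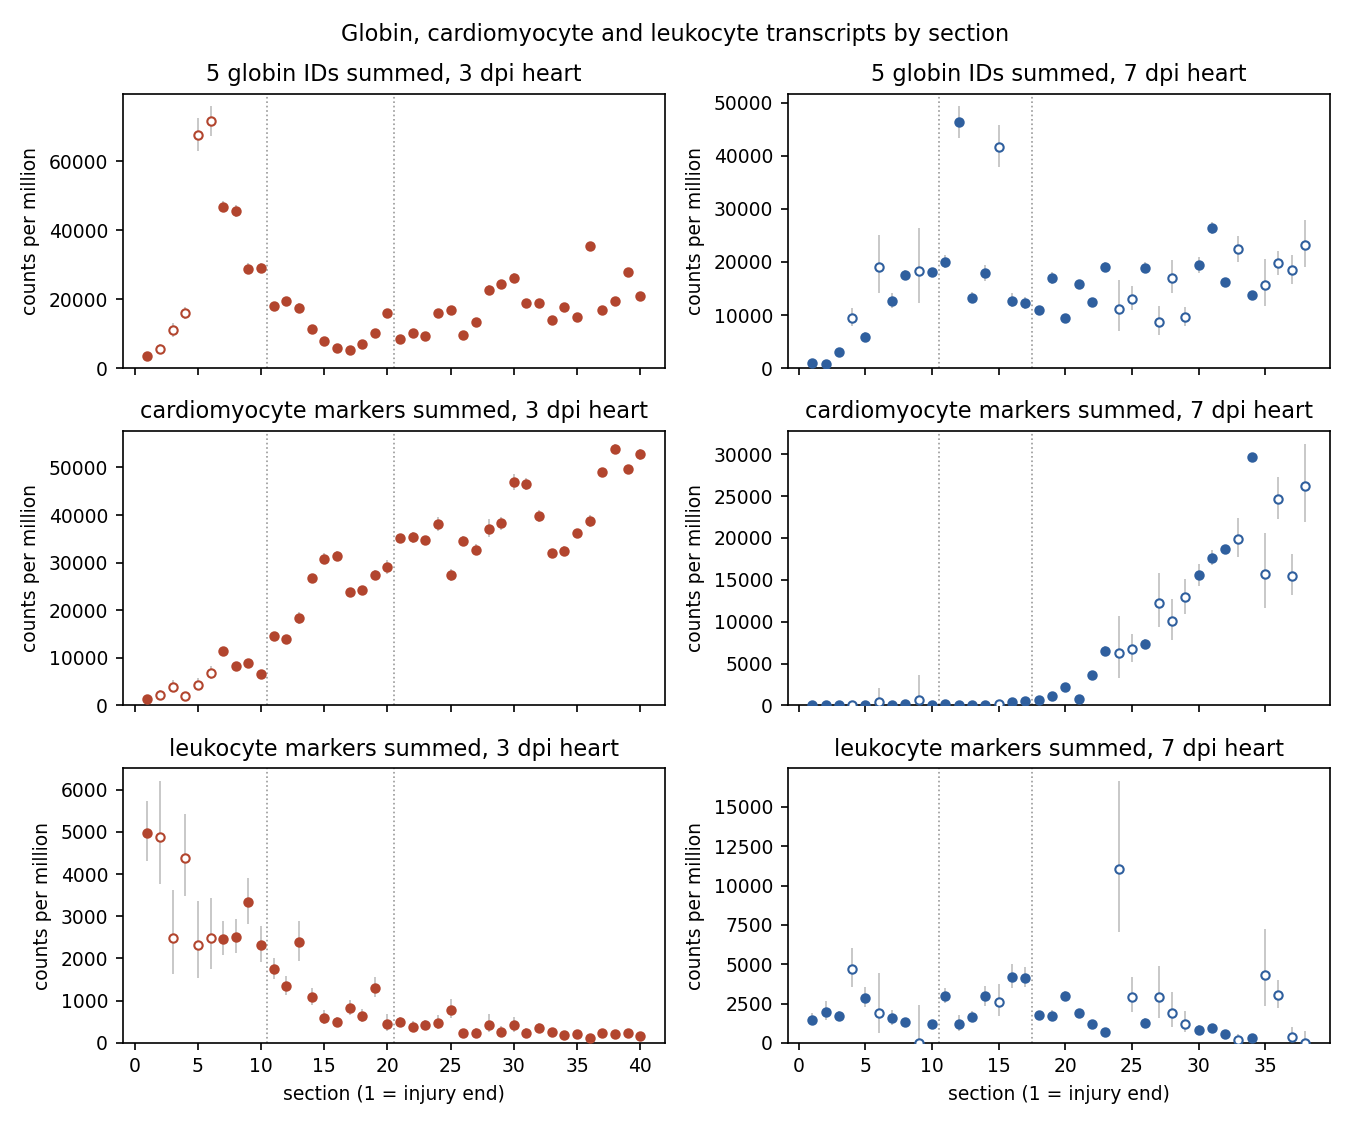
The 5 globin IDs summed, the cardiomyocyte markers and the macrophage and neutrophil (leukocyte) markers in CPM by section, with section 1 at the injury end; symbols are as in the plot of single genes. Globins peak at 71630 CPM in section 6 of the 3 dpi heart and dip to 5366 in section 17, while cardiomyocyte markers are highest toward the remote end of each heart.

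Between the hearts, red cell genes did not differ in one direction. Over all kept sections, alas2 was at 80.2 CPM at 3 dpi (71.6 to 89.6) and 32.6 at 7 dpi (26.6 to 39.4), 2.46-fold higher at 3 dpi (1.97 to 3.11). hemgn was at 39.3 CPM (33.4 to 46.1) and 13.8 (10.01 to 18.5), 2.86-fold higher at 3 dpi (2.03 to 4.09). hbaa2 went the other way, at 237 CPM (222 to 253) and 369 (348 to 390), 1.56-fold higher at 7 dpi (1.43 to 1.70). Each of these kept its sign under all 11 alternatives run for it. On the log2 scale hbaa2 lay between 0.26 and 0.67, alas2 between -1.50 and -0.98 and hemgn between -1.67 and -1.24. No alternative used the median kept section. For hbaa2 that median was 216.7 CPM at 3 dpi and 189.8 at 7 dpi, the reverse order of the pooled levels. For alas2 it was 69.0 and 16.8 CPM and for hemgn 28.8 and 9.29 CPM, in the same order as the pooled levels.

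The other globin IDs differed by less than 2-fold between the hearts. si:ch211-5k11.8 was at 8107 CPM at 3 dpi and 7992 at 7 dpi, a 7 dpi over 3 dpi fold of 0.99 (0.97 to 1.00). HBE1 ENSDARG00000089087 was at 7969 and 5578 CPM (0.70, 0.69 to 0.71), HBE1 ENSDARG00000069734 at 540 and 412 (0.76, 0.71 to 0.82) and hbae4 at 15.1 and 15.7 (1.04, 0.70 to 1.54). The globins summed were at 16868 and 14366 CPM. The 3 members summed were at 357 and 415 CPM, a fold of 1.16 (1.08 to 1.26). The sign of this log2 difference changed in 2 of 11 alternatives. These were equal weighting of sections and totals without the 2 gene IDs of highest count.

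Within the red cell list, 13 IDs had enough counts in both hearts. Of these 13, 5 were at least 2-fold higher at 3 dpi, against 13.5% of all 6606 genes compared, and 3 were at least 2-fold higher at 7 dpi, against 22.5%. The list's median log2 difference was -0.29, beside 0.18 over all genes. Higher at 3 dpi, beside hemgn and alas2, were SPTB at 80.7 against 19.1 CPM (4.23-fold, 3.21 to 5.66), cahz at 195 against 50.4 CPM (3.87-fold, 3.26 to 4.62) and RHAG at 26.3 against 9.71 CPM (2.71-fold, 1.80 to 4.19). cahz encodes the carbonic anhydrase of zebrafish red cells. Higher at 7 dpi were the transcription factor genes gata1a, at 6.90 CPM at 3 dpi and 22.2 at 7 dpi, TAL1, at 7.41 and 17.2, and NFE2, at 6.39 and 19.4. All 3 factors act in red cell precursors but not only there, gata1a and NFE2 for example also in thrombocyte or platelet precursors. Of the same list, klf1 and epb41b were not compared because they had fewer than 20 kept counts at 7 dpi. klf1 had 41 kept counts at 3 dpi and 5 at 7 dpi, and epb41b had 63 and 17. The second SLC4A1 ID, with 20 kept counts at 7 dpi, was not compared either. SLC4A1 was at 55.9 and 45.7 CPM, a 3 dpi over 7 dpi fold of 1.22 (0.99 to 1.52).

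Markers of other cells differed between the hearts as well. Thrombocyte markers (itga2b, gp1bb, f5 and thbs1b) summed to 41.4 CPM at 3 dpi and 397 at 7 dpi. How far each of them was confined to thrombocytes in these hearts was not tested. The endothelium markers summed to 130.0 and 493 CPM. The cardiomyocyte markers summed to 34462 and 11551 CPM, and the macrophage and neutrophil markers to 649 and 1196. The part of these in the values of gata1a, TAL1, NFE2 and the members was not tested.

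**Figure D3:**
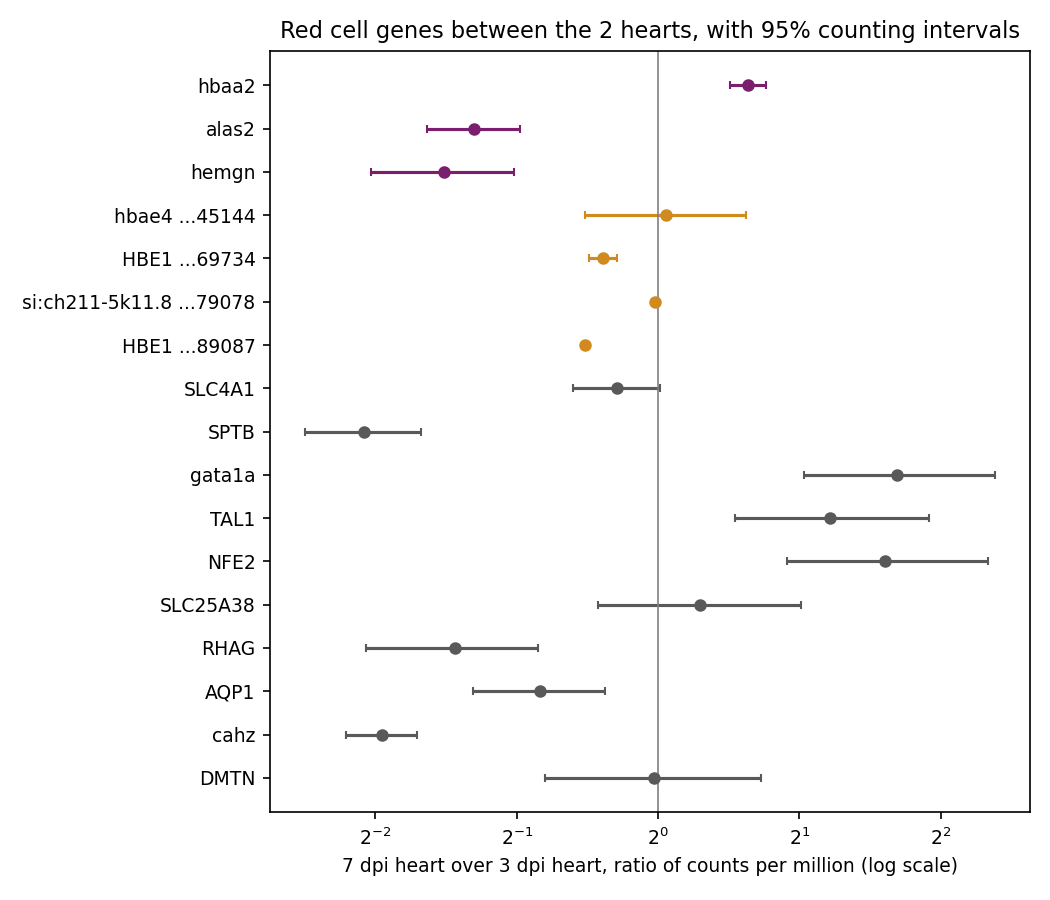
Ratio of CPM in the 7 dpi heart to the 3 dpi heart (log scale) with 95% counting intervals, for the 3 members (purple), the other globin IDs (orange, by the last digits of their ID) and the rest of the red cell list with enough counts (grey). alas2, hemgn, SPTB, RHAG and cahz lie left of 1, at least 2-fold lower at 7 dpi. hbaa2, gata1a, TAL1 and NFE2 lie right of it.

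The proportions among red cell transcripts varied from place to place. At 3 dpi there were 0.0186 hbaa2 counts per si:ch211-5k11.8 count on the injury side (0.0146 to 0.0234), 0.0359 in the middle (0.0308 to 0.0417) and 0.0296 remotely (0.0274 to 0.0320). At 7 dpi the same ratio was 0.0241 (0.0191 to 0.0301), 0.0148 (0.0101 to 0.0210) and 0.0532 (0.0499 to 0.0566). The interval of the 7 dpi remote side lay above that of each other domain. The 2 abundant globin IDs also shifted against each other, with 0.87 si:ch211-5k11.8 counts per HBE1 ENSDARG00000089087 count on the injury side at 3 dpi (0.83 to 0.91) and 1.06 on the remote side (1.04 to 1.08). At 7 dpi that ratio was 1.38 (1.31 to 1.45), 1.153 (1.08 to 1.23) and 1.48 (1.45 to 1.51) from the injury side outward. Over single kept sections it ran from 0.39 to 1.35 with a median of 1.00 at 3 dpi, and from 0.45 to 3.89 with a median of 1.22 at 7 dpi. A ratio shows unequal difference and not which of the pair differed.

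Ratios to alas2 also differed between the hearts. There were 210.3 globin counts per alas2 count at 3 dpi (188 to 236) and 441 at 7 dpi (364 to 540.1). On the injury side the values were 277 (196 to 405) and 219 (150.4 to 333), which overlap, and on the remote side 189.7 (167 to 216) and 505 (400.0 to 646). For hbaa2 alone there were 2.96 counts per alas2 count at 3 dpi and 11.3 at 7 dpi. For alas2 and hemgn the intervals of the 2 hearts overlap, with 2.04 alas2 counts per hemgn count at 3 dpi (1.68 to 2.49) and 2.36 at 7 dpi (1.65 to 3.44).

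**Figure D4:**
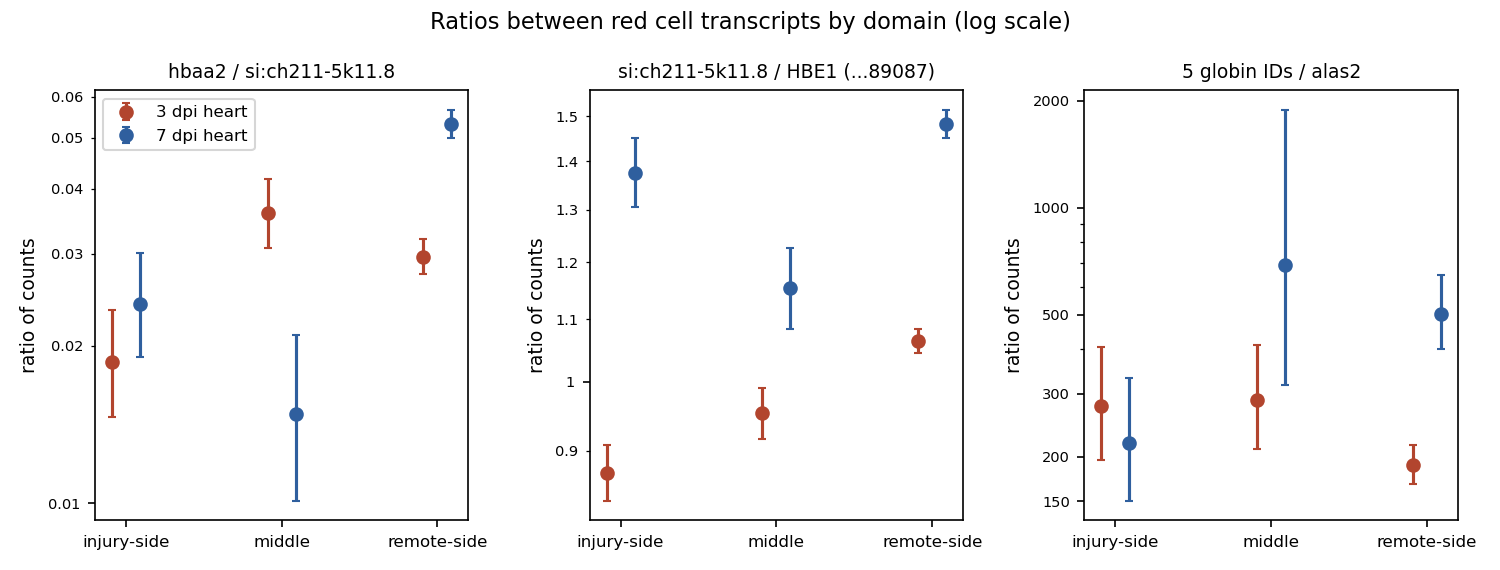
Ratios of counts (log scale) in the injury-side, middle and remote-side domains of each heart, with 95% counting intervals, for hbaa2 to si:ch211-5k11.8, si:ch211-5k11.8 to HBE1 ENSDARG00000089087 and the 5 globin IDs to alas2. hbaa2 per si:ch211-5k11.8 count is highest on the 7 dpi remote side, at 0.0532, and globins per alas2 count differ between the hearts on the remote side, at 189.7 and 505.

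The members' profiles over sections resembled each other to different degrees. Over 35 sections rho was 0.81 between hbaa2 and si:ch211-5k11.8, 0.47 between hbaa2 and alas2, 0.32 between hbaa2 and hemgn and 0.34 between hemgn and alas2. Over 24 sections at 7 dpi the same values were 0.67, -0.04, 0.35 and 0.39. Low counts of alas2 and hemgn limit any such value. The genes outside the red cell list whose profile was most like that of the summed members at 3 dpi, among 1547 with at least 200 counts, were si:ch211-5k11.8 (rho 0.88), HBE1 ENSDARG00000069734 (0.82), si:ch211-103n10.5 (0.81), HBE1 ENSDARG00000089087 (0.79) and ENSDARG00000063345 (0.54), which has no symbol. si:ch211-103n10.5 (ENSDARG00000077504) was at 548, 177 and 389.9 CPM in the domains in order from the injury. At 7 dpi, among 1507 genes, those most alike included ENSDARG00000087796 without a symbol (0.83), PHLDA2 (0.79), ACTA1 (0.78), a muscle actin, and FHL1 (0.78), a LIM-domain protein of muscle. ACTA1 stood at 41.3, 105 and 1961 CPM.

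Haem genes outside red cells gave a different picture. ALAS1, the first enzyme of haem synthesis in other tissues, was at 196, 279 and 454 CPM from the injury outward at 3 dpi, and at 12.4, 39.5 and 122 CPM at 7 dpi. Over whole hearts it stood at 394 and 99.5 CPM. Of the haem synthesis list of 13 symbols, 6 IDs including alas2 had enough counts at 3 dpi, of which 1 (UROD) was at least 2-fold higher near the injury and 3 were at least 2-fold lower, beside 35.3% and 16.5% of all genes, with a median difference of -0.73. The 3 were ALAS1, uros with 1 injury-side count and ABCB10 with 0. At 7 dpi 4 had enough counts, with 1 (UROD) higher and 2 lower, beside 11.3% and 26.7% of all genes, and a median of -0.33. Median differences over all genes were 0.55 and -0.20.

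Genes of haem breakdown and iron included a steep injury-side gene at 3 dpi. HMOX1, the oxygenase that opens the haem ring, was at 1046, 369 and 56.1 CPM in the same order, and at 86.8, 48.2 and 24.6 CPM at 7 dpi. Over whole hearts it was at 199.5 CPM at 3 dpi and 35.7 at 7 dpi, 5.59-fold higher at 3 dpi (4.59 to 6.87). fth1a, a ferritin heavy chain that stores iron, was at 922, 832 and 1269 CPM at 3 dpi and 341, 645 and 814 at 7 dpi. tfa, the iron carrier transferrin, was at 65.2 CPM at 3 dpi and 167 at 7 dpi over whole hearts, and SLC40A1, the iron exporter ferroportin, at 28.6 and 36.6. Of this list of 15 symbols, 7 IDs had enough counts at 3 dpi, with 2 at least 2-fold higher near the injury (HMOX1 and ftr82) and 1 lower, FTH1 (ENSDARG00000007975) with 0 injury-side counts, beside 35.3% and 16.5% of all genes, and a median of 0.08. At 7 dpi 5 had enough counts, with 1 higher (HMOX1) and 1 lower (fth1a), beside 11.3% and 26.7% of all genes, and a median of 0.21. ftr82 was counted in both hearts because its symbol is on the list. A part of ftr82 in haem breakdown or iron handling was not established, so it is not evidence about iron genes.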

How the data were processed

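The deposited tables give whole-number counts, not normalized, for each Ensembl gene ID and section. Their unit is entered as other, since column headings made of bare numbers could not be read by the automatic check; a script tested that every value is a whole number of at least 0. TRIzol extraction and paired 75 bp reads are stated per the labels' protocols, and alignment with BWA 0.6.2 per the submitters' processing notes. Genome build, annotation, strand setting and use of molecular identifiers are not given in the sources used here. Reads without identifiers are not independent molecules. If no identifiers were used, the intervals are too narrow even for counting error. CEL-seq reads transcript ends, so counts were not divided by length.

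Spike-in rows (19 and 44, with 171 and 8631 counts) were left out. Columns of other samples numbered 0. Symbols were matched in any case, and a capital symbol without a final a or b also matched. Sections were kept at 20% or more of the 75th percentile of section totals (24571 and 16192 counts). Least-squares segmentation of z-scored log2(CPM + 10) values, over the 2000 genes of highest mean outside all lists, set 3 domains with 4 sections or more each. Levels are summed counts per 1000000 gene counts. Differences are of log2(CPM + 1), folds carry exact conditional intervals, a floor is 3 counts, and a gene was compared with at least 20 counts in each heart compared.

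Members and lists were chosen with earlier results of these data known. List genes with at least 20 counts in a heart could be named, with levels and folds given only for those with at least 50. The other named genes were the members and, in each heart, the 5 genes outside the red cell list, with at least 200 counts, of highest Spearman rho with the summed members. A gene named by this rule at 7 dpi is not reported here. The other globin IDs and the count of genes lowest in the middle were added after the data were seen. Of the marker list for red cells, 6 of 9 symbols had a row. The segmentation and intervals were tested on simulated Poisson counts with planted domain borders. Real sections varied by more than Poisson counts do. That test therefore cannot show how well the intervals or borders hold in these hearts. Alternatives changed scaling, totals, section minimum, pseudocount, weighting, single sections and domain borders. Python 3.11.15, NumPy 2.4.6, pandas 2.3.3 and SciPy 1.17.1 were used.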

Additional observations from a re-analysis of the deposited data

Results flagged for a closer look

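The injury-side minus remote-side log2 difference had opposite signs in the 2 hearts for hbaa2 (0.1547 at 3 dpi and -1.372 at 7 dpi), for hbaa2, hemgn and alas2 summed (0.3585 and -0.9811) and for the 5 globin IDs summed (0.9562 and -0.2403). With 1 heart per day the difference between the hearts was not tested. The 3 dpi fold of hbaa2 was 1.11 (0.86 to 1.42), an interval that includes 1, and its log2 difference changed sign in 7 of 14 alternatives, ranging from -1.78 to 0.27. That of the summed members changed sign in 5 of 14 and that of the globin IDs in 2 of 14. The sums contain hbaa2 and are not independent of it.

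Globin transcripts were also counted in the sections left out for low totals. In the 5 such sections at 3 dpi, all on the injury side, the globin IDs summed stood at 33858 CPM (32512 to 35246), with single sections from 5611 to 71630 CPM. In the 14 such sections at 7 dpi they stood at 18500 CPM (17710 to 19315), with single sections from 8710 to 41717 CPM. The 3 members held 13 and 49 counts there, at 185 CPM (98.5 to 316) and 439 CPM (325 to 581). At 3 dpi this was below their level in the kept injury-side sections, 491 CPM (410 to 583). In sections 5 and 6, where the globin peak continued, the members held 2 and 5 counts. Their levels there were 166 CPM (20.1 to 598) and 336 CPM (109 to 784). Both intervals include 491 CPM, so whether the members continued the globin peak could not be told at this depth.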

How the results depend on the processing

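Values here are log2 differences. No paired analysis was possible because each day has 1 heart and the 2 samples share only 1 replicate number. The injury-side minus remote-side value of the summed members at 3 dpi was -0.562 with median-of-ratios scaling, 0.08149 with totals without the 2 gene IDs of highest count, -1.481 with a section minimum of 5% or none, -0.549 with 3 domains of equal number and -0.575 with 2 equal domains. hemgn at 3 dpi was -0.1541 with a minimum of 5% or none, -0.1862 with 3 equal domains and -0.5102 with 2. The globin sum at 3 dpi was 0.03575 with median-of-ratios scaling, 0.6786 with the reduced totals, 0.4069 with 5% or none, 0.7472 with 40%, 0.7649 with mean section CPM, 1.034 without its section of most counts, -0.165 with 3 equal domains and -0.4026 with 2. At 7 dpi the summed members were -2.025 with mean section CPM and -3.519 without sections 8 and 10 or with borders of an earlier analysis, both chosen after seeing the data, and no alternative changed the sign. The globin sum at 7 dpi was -0.2921 with median-of-ratios scaling, -0.1595 with reduced totals, -0.1548 with 40%, -0.523 with no minimum, -0.9508 with mean section CPM, -0.01565 with 2 equal domains and -1.837 without sections 8 and 10 or with the earlier borders. Between hearts the summed members were 0.02143 with median-of-ratios scaling, -0.00389 with reduced totals and -0.08505 with mean section CPM. The globin sum between hearts was -0.4287, -0.4546 and -0.2703 in that order, -0.1542 without its section of most counts and -0.209 without the deepest section. The count of red cell list genes lowest in the middle at 3 dpi was 6 with 5% or none and 9 to 14 under the other alternatives. At 7 dpi it ran from 1 to 8. The share of all genes lowest in the middle was not computed for any alternative, so these counts have no background beside them. With a section minimum of 5%, 40% or none, the domain borders themselves moved. At 5% or none the injury-side domain was sections 1 to 6 at 3 dpi and 1 to 23 at 7 dpi. The remote-side domain at 7 dpi became sections 30 to 38 at 5%, 30 to 34 at 40% and 35 to 38 with none. Equal domains and the earlier borders also compared other sections. For the other alternatives the cause was not tested. Depth limits hemgn and alas2 at 7 dpi, with 44 and 104 kept counts.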
